A study of Mus musculus with 18 samples.

Results

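Chemokine ligands are the small secreted proteins that direct the movement of leukocytes, and this account follows their RNA across 18 spontaneous mammary gland tumors of mice. The ligands were taken by symbol: every Ccl gene and every Cxcl gene with a number, plus Cx3cl1 and Xcl1. These were 38 of the 55450 genes in the tables, and 35 of the 38 passed a filter on low counts. Bulk RNA was sequenced from tumors that the labels assign to 18 different mice, all untreated. Every mouse carried MMTV-Cre(+), a Cre recombinase driven by the mouse mammary tumor virus promoter, which is active mainly in mammary epithelium, and 1 Pik3ca allele with the activating H1047R change, written Pikca(H1047R, het) in the labels. The tumors differed by the Cbfb part of the genotype: 14 were Cbfb(het), 3 were Cbfb(wt) and 1 was Cbfb(homo). Cbfb encodes the binding partner of the RUNX transcription factors. What was changed in the Cbfb alleles, and in which cells, is not given, nor are age, sex, litter or batch. Tumors are named below by Cbfb label and a number given in accession order, which pairs nothing across groups.

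Chemokines bind receptors on leukocytes and act as gradients along which the cells move. The first cysteines of the protein give the families CC (Ccl), CXC (Cxcl), CX3C and XC, while the receptor decides which cells respond: Cxcr2 ligands draw neutrophils, Cxcr3 ligands draw activated T and NK cells, and Ccr2 ligands draw monocytes that can become macrophages. In mammary tissue, some ligands are made by epithelium, some by fibroblasts and vessels, and some by the leukocytes themselves.

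The genes were clustered in the genome. On GRCm38, chromosome 11 held 12 of the 38 and chromosome 5 held 11. The monocyte ligands Ccl2 (chr11:82035571-82037453) and Ccl7 (chr11:82045712-82047525) were neighbors, and the neutrophil ligands Cxcl1 (chr5:90891241-90893115), Cxcl2 (chr5:90903871-90905938), Cxcl3 (chr5:90786103-90789600) and Cxcl5 (chr5:90759360-90761624) lay in 1 stretch, all on the plus strand. Some positions limit what the counts can tell. Ccl21a and Ccl21b, and Ccl27a and Ccl27b, are near-identical copies between which reads cannot be assigned with certainty. The strand setting of the counting is not given in the sources used here, and a gene on the opposite strand covered 18.3% of the exonic bases of Cxcl16 (Zmynd15), 18.7% of Xcl1, 5.91% of Cxcl10 (Art3) and 41.7% of Cxcl11, so the values of these 4 genes may hold reads of their partners.

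RefSeq promoters of GRCm38.p6, from 250 bases before to 50 after the start, were at hand for 27 of the 38 ligands. Only the 250 bases before the start were searched. The sequences below are shown because NF-kappaB and interferon-activated factors are the best known regulators of inflammatory chemokines. A form of the NF-kappaB site, GGG and TTTCC with any 2 bases between them, read on both strands, occurred in the promoters of 5 of the 27 ligands (Cxcl1, Cxcl2, Cxcl3, Ccl9 and Ccl20) and in 1.41% of all 32851 promoters. A form of the interferon response element, GAAA and GAAA with any 2 bases between them, read on both strands, occurred in 3 of the 27 (Cxcl10, Cxcl14 and Ccl19) and in 2.98% of all promoters. The gamma-interferon element, TTC and GAA with any 3 bases between them, occurred in 2 of the 27 (Ccl17 and Cxcl14) and in 7.02% of all. Counted by promoter, as the shares of all are, these forms occurred in 5, 3 and 2 of 33 ligand promoters. A match describes letters only and shows no binding. Each stretch is written 5′ to 3′ on the strand of its gene, ends before the annotated start, and has its matches in capitals. Both Cxcl1 and Cxcl2 held 2 matches, and the same 10 letters appeared in Cxcl1, Cxcl2 and Cxcl3. The stretches are chr5:90891144-90891208 (plus strand), chr5:90903790-90903855 (plus), chr5:90786016-90786062 (plus), chr1:83116674-83116720 (plus), chr11:83578637-83578683 (minus) and, for the interferon response element, chr5:92349068-92349114 (minus).
Cxcl1: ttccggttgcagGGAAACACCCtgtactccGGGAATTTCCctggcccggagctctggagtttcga
Cxcl2: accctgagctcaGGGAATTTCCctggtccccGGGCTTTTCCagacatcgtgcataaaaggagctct
Cxcl3: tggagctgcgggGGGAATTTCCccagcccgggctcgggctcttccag
Ccl20: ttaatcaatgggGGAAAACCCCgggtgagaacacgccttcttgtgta
Ccl9: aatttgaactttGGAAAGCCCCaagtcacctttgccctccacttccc
Cxcl10: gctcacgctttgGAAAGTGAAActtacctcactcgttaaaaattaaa

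Some libraries stood apart. Depth was even, at 33210239 to 40974166 rounded expected counts. Cbfb(het) 10 and Cbfb(het) 14 were far closer to each other than any other pair, although the labels name 2 mice. Their Pearson r of log2 CPM was 0.997, against at most 0.969 elsewhere, and their mean chi-square per gene was 4.18, against 85.9 for the next closest pair. They differed by more than sampling noise, which does not show that they are 2 tumors. Both were kept as separate tumors. Calls lost without Cbfb(het) 14 are given below for the comparisons with Epcam and with T cell and B and plasma cell markers. In the other comparisons this omission is covered, if at all, by a range over omitted tumors. Epcam, a surface protein of epithelial cells, ranged from 2.42 log2 CPM (counts scaled to depth with TMM factors) in Cbfb(wt) 2 through 4.79 and 4.82 in Cbfb(het) 10 and 14, 6.28 in Cbfb(het) 1 and 6.84 in Cbfb(het) 12 to between 8.38 and 9.52 in the other 13 tumors. The widest gap, below Cbfb(het) 10, was 2.36, or 0.333318 of the range, just under the limit of 0.333333 beyond which the tumors would have been treated as separate runs. Other cell markers moved with Epcam. In the 5 tumors with Epcam under 8 log2 CPM, the 7 fibroblast markers (Col1a1, Dcn, Pdgfra and others) averaged 8.80 to 11.09 log2 CPM and summed to 3183 to 20842 TPM (a share of all transcripts, scaled by length), against 4.31 to 8.26 log2 CPM and 115 to 1985 TPM in the other 13. The 12 macrophage markers averaged 5.84 to 7.31 log2 CPM in those 5 tumors and 4.94 to 6.67 in the other 13, so these ranges overlapped; no fibroblast or macrophage marker was at 0 in any tumor. Bulk RNA cannot tell fewer cells of a type from less RNA per cell.

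Ligand RNA was abundant but unevenly spread. The 38 ligands together summed to between 384 TPM in Cbfb(het) 8 and 2192 TPM in Cbfb(het) 3, and no ligand led everywhere. Ccl8 was the most abundant ligand in 6 tumors (Cbfb(het) 1, 2, 3, 5, 9 and 11), Cxcl14 in 4 (Cbfb(homo) 1 and Cbfb(het) 4, 6 and 7), Cxcl12 in 3 (Cbfb(het) 10, 12 and 14), and Ccl2, Ccl6, Cxcl1, Cxcl5 and Cxcl16 in 1 each. In Cbfb(het) 5, Ccl8 alone made up 44.8% of all ligand TPM, while the leading ligand of Cbfb(het) 6, Cxcl14, made up 12.8%. By median TPM the order began with Ccl8 (82.7), Cxcl16 (75.6), Cxcl14 (65.9), Cx3cl1 (59.7) and Ccl6 (42.9), and these 5 were not separated by their spread, since the range over tumors of each overlapped that of the next. The same held for Cxcl12 (33.6), Ccl9 (31.5), Cxcl5 (30.4), Cxcl1 (30.3) and Ccl2 (23.8), which completed the first 10. In all, 30 ligands had a median of at least 1 TPM, 5 that passed the filter lay lower, and 3 did not pass.

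**Figure D1:**
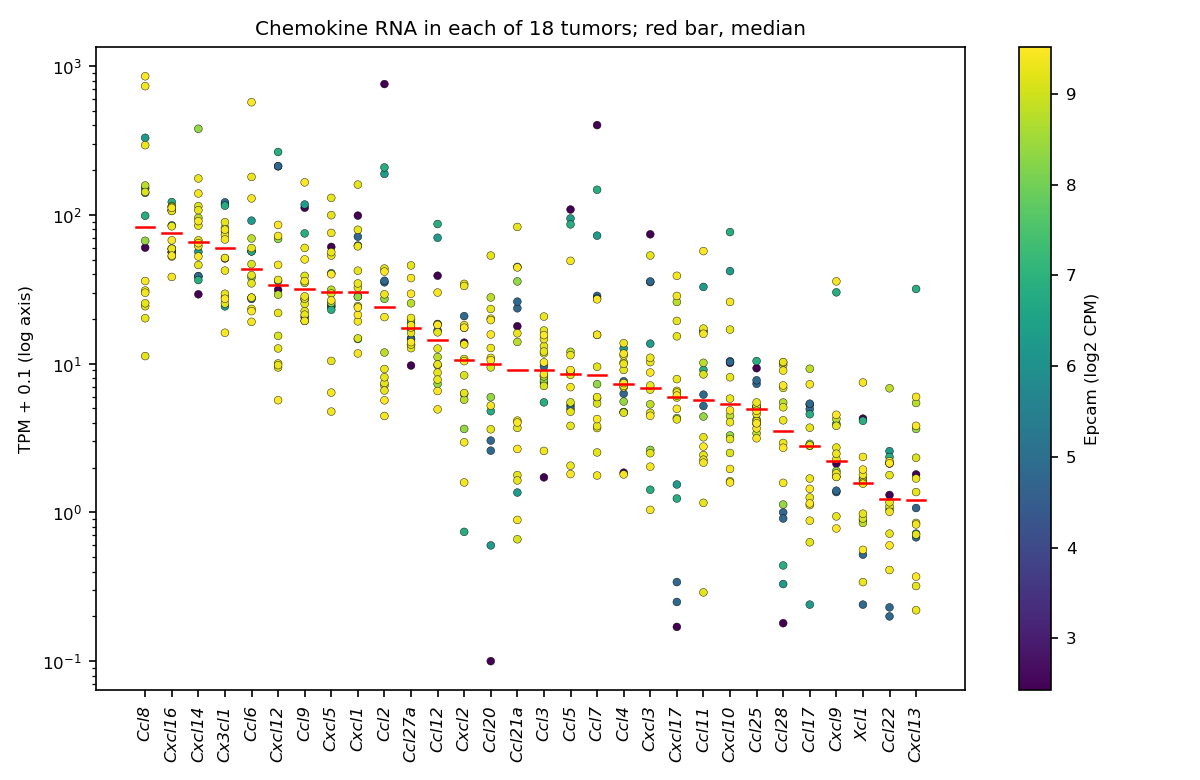
TPM plus 0.1 on a log axis (vertical) for the 30 chemokine ligands with a median of at least 1 TPM (horizontal, by falling median), with 1 point per tumor colored by Epcam in log2 CPM and a red bar at the median of the 18 tumors. Cxcl16 spans 38.2 to 122 TPM, while Ccl2 spans 4.35 to 757 TPM with Cbfb(wt) 2, the darkest point, on top.

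The Cxcr2 ligands Cxcl1, Cxcl2, Cxcl3 and Cxcl5, which draw neutrophils, together reached a median of 88.9 TPM. Cxcl1 ranged from 11.6 TPM (Cbfb(het) 5) over a median of 30.3 to 160 (Cbfb(wt) 1). Cxcl5 ranged from 4.66 TPM (Cbfb(het) 4) over 30.4 to 130 (Cbfb(het) 13). For both genes, the tumors at the top and at the bottom were rich in Epcam. Cxcl2 ranged from 0.64 TPM (Cbfb(het) 12) over 10.5 to 34.3 (Cbfb(wt) 1). Cxcl3 ranged from 0.94 TPM (Cbfb(het) 4) over 6.81 to 73.9 (Cbfb(wt) 2). The 4 highest Cxcl3 values were those of Cbfb(wt) 2, Cbfb(wt) 1 (53.2 TPM) and the close pair Cbfb(het) 14 and 10 (35.6 and 35.3 TPM), so 3 of the 4 came from tumors with little Epcam. Cxcr2, their receptor, was at 1.10 to 21.1 TPM with its highest value in Cbfb(het) 11, where Cxcl1, Cxcl2 and Cxcl3 were below their medians.

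The Cxcr3 ligands Cxcl9, Cxcl10 and Cxcl11 are induced by interferon and draw T and NK cells. Cxcl9 ranged from 0.68 TPM (Cbfb(het) 8) over a median of 2.11 to 30.1 (Cbfb(het) 12) and 35.6 (Cbfb(het) 5), with no other tumor above 4.43. These 2 tumors stood far above the rest. Cxcl10 ranged from 1.49 TPM (Cbfb(het) 8) over 5.24 to 76.5 (Cbfb(het) 12), followed by 41.8 in Cbfb(het) 1 and 25.9 in Cbfb(het) 5. Cxcl11 lay under 1 TPM in 15 of 18 tumors and reached 3.37 TPM in the same Cbfb(het) 12; GENCODE lists it as a polymorphic pseudogene. Ifng, the gene of interferon gamma, did not pass the filter and was highest, at 1.49 TPM, in Cbfb(het) 5.

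Among the Ccr2 ligands, which draw monocytes, 3 tumors with little Epcam stood out. Ccl2 ranged from 4.35 TPM (Cbfb(het) 4) over a median of 23.8 to 757 (Cbfb(wt) 2), with 208 in Cbfb(het) 12 and 188 in Cbfb(het) 1 and none of the other 15 above 43.5. Ccl7 ranged from 1.67 TPM (Cbfb(het) 4) over 8.31 to 401 (Cbfb(wt) 2), again followed by Cbfb(het) 12 (147 TPM) and Cbfb(het) 1 (72.4 TPM). Ccl12, a rodent relative of Ccl2, ranged from 4.83 TPM (Cbfb(het) 4) over 14.3 to 86.7 (Cbfb(het) 12), 70.1 (Cbfb(het) 1) and 38.9 (Cbfb(wt) 2). Their summed level in Cbfb(wt) 2 was 1197 TPM, against a median of 52.2 TPM. The receptor Ccr2 ranged from 0.90 over 4.26 to 65.6 TPM and was highest in Cbfb(het) 12.

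The inflammatory CC ligands Ccl3, Ccl4, Ccl5, Ccl6 and Ccl9, which draw myeloid cells and in part T cells, fell into different patterns. Ccl6 ranged from 19.0 TPM (Cbfb(het) 4) over a median of 42.9 to 572 (Cbfb(het) 3), and Ccl9 from 19.3 TPM (Cbfb(homo) 1 and Cbfb(het) 4) over 31.5 to 165 (Cbfb(het) 3). The top of both was a tumor with abundant Epcam. Ccl5, made by T and NK cells among others, ranged from 1.71 TPM (Cbfb(het) 8) over 8.36 to 109 (Cbfb(wt) 2), 94.6 (Cbfb(het) 1), 86.2 (Cbfb(het) 12) and 49.0 (Cbfb(het) 5), and the other 14 tumors reached at most 11.9 TPM. Ccl3 ranged from 1.62 TPM (Cbfb(wt) 2) over 8.95 to 20.6 (Cbfb(het) 9), and Ccl4 from 1.70 TPM (Cbfb(het) 4) over 7.15 to 13.6 (Cbfb(het) 9). These macrophage inflammatory proteins were thus at 1.62 and 1.75 TPM in Cbfb(wt) 2, the tumor with the highest mean of the macrophage markers.

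Of the Ccr3 ligands, which draw eosinophils, Ccl11 (eotaxin) ranged from 0.19 TPM (Cbfb(wt) 3) over a median of 5.59 to 57.0 (Cbfb(het) 3). Ccl24, a second eotaxin, was under 1 TPM in 13 of 18 tumors and also peaked in Cbfb(het) 3, at 6.25 TPM. Ccl26 had 0 counts in all 18 tumors, where a count of 0 allows up to 3 in a tumor. Ccl8, a ligand of Ccr8 in mice, ranged from 11.1 TPM (Cbfb(wt) 3) over 82.7 to 733 (Cbfb(het) 5) and 855 (Cbfb(het) 3). Ccl1, the other Ccr8 ligand, had a median of 0.415 TPM and a highest value of 5.32 (Cbfb(wt) 1). The Ccr4 ligands were low throughout: Ccl17 ranged from 0.14 TPM (Cbfb(het) 1) over 2.71 to 9.14 and Ccl22 from 0.10 TPM (Cbfb(het) 14) over 1.14 to 6.73, both highest in Cbfb(het) 11.

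The Ccr7 ligands guide dendritic and naive T cells to lymphoid tissue. Ccl21a, a product of lymphatic vessels and lymphoid stroma, varied widely, from 0.56 TPM (Cbfb(het) 2) over a median of 8.97 to 82.9 (Cbfb(het) 13). Ccl19 was under 1 TPM in 12 of 18 tumors and highest in Cbfb(het) 5, at 6.82 TPM. Ccl21b (25 counts in all, 18 of them in Cbfb(het) 5) and Ccl27b (22 counts, all in Cbfb(het) 5) did not pass the filter. Cxcl13, which draws B cells through Cxcr5, ranged from 0.12 TPM (Cbfb(het) 6) over 1.12 to 31.7 in Cbfb(het) 12, with no other tumor above 5.88. Xcl1, which draws Xcr1-bearing dendritic cells, ranged from 0.14 TPM (Cbfb(het) 10) over 1.48 to 7.37 in Cbfb(het) 5, the tumor with the highest T cell score.

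Ccl20, Ccl28, Cxcl17, Ccl27a and Ccl25 are known mainly from epithelia. Ccl20, which binds Ccr6, was at 0 in Cbfb(wt) 2, where the count of 0 allows up to 3, and ranged over a median of 9.90 to 53.2 TPM (Cbfb(wt) 1). Ccl28, a mucosal ligand of Ccr10, ranged from 0.08 TPM (Cbfb(wt) 2) over 3.45 to 10.2 (Cbfb(het) 7). Cxcl17, another mucosal chemokine, ranged from 0.07 TPM (Cbfb(wt) 2) over 5.91 to 38.8 (Cbfb(het) 5). The 5 tumors with little Epcam reached at most 0.90 TPM of Ccl28 and 1.44 TPM of Cxcl17, against at least 1.03 and 4.12 TPM in the other 13. Ccl20 was at most 4.69 TPM in those 5 tumors but also low, at 3.52 TPM, in the Epcam-rich Cbfb(wt) 3. Ccl27a, the other Ccr10 ligand, varied less, from 9.61 TPM (Cbfb(wt) 2) over 17.3 to 45.7 (Cbfb(wt) 1). Ccl25, which binds Ccr9, ranged from 3.05 TPM (Cbfb(het) 5) over 4.87 to 10.3 (Cbfb(het) 12).

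Of the remaining ligands, Cxcl12, Cxcl16, Cx3cl1 and Cxcl14 were abundant and Cxcl15 was not. Cxcl12, a stromal ligand of Cxcr4, ranged from 5.58 TPM (Cbfb(het) 8) over a median of 33.6 to 265 (Cbfb(het) 12), with 212 in both Cbfb(het) 10 and 14. Those 3 tumors stood well above the next, Cbfb(het) 3, at 85.5 TPM. Cxcl16, which binds Cxcr6 and is also held at the cell membrane, was the steadiest ligand, from 38.2 TPM (Cbfb(het) 4) over 75.6 to 122 (Cbfb(het) 12), an SD of 0.38 on the log2 CPM scale. Cx3cl1, a membrane-bound ligand of Cx3cr1, ranged from 16.0 TPM (Cbfb(het) 8) over 59.7 to 121 (Cbfb(het) 14). Cxcl14, an epithelial ligand without an agreed receptor, ranged from 29.2 TPM (Cbfb(wt) 2) over 65.9 to 379 (Cbfb(homo) 1). Cxcl15, known from mouse lung, was under 1 TPM in 14 of 18 tumors and reached 17.2 TPM, again in Cbfb(homo) 1.

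**Figure D2:**
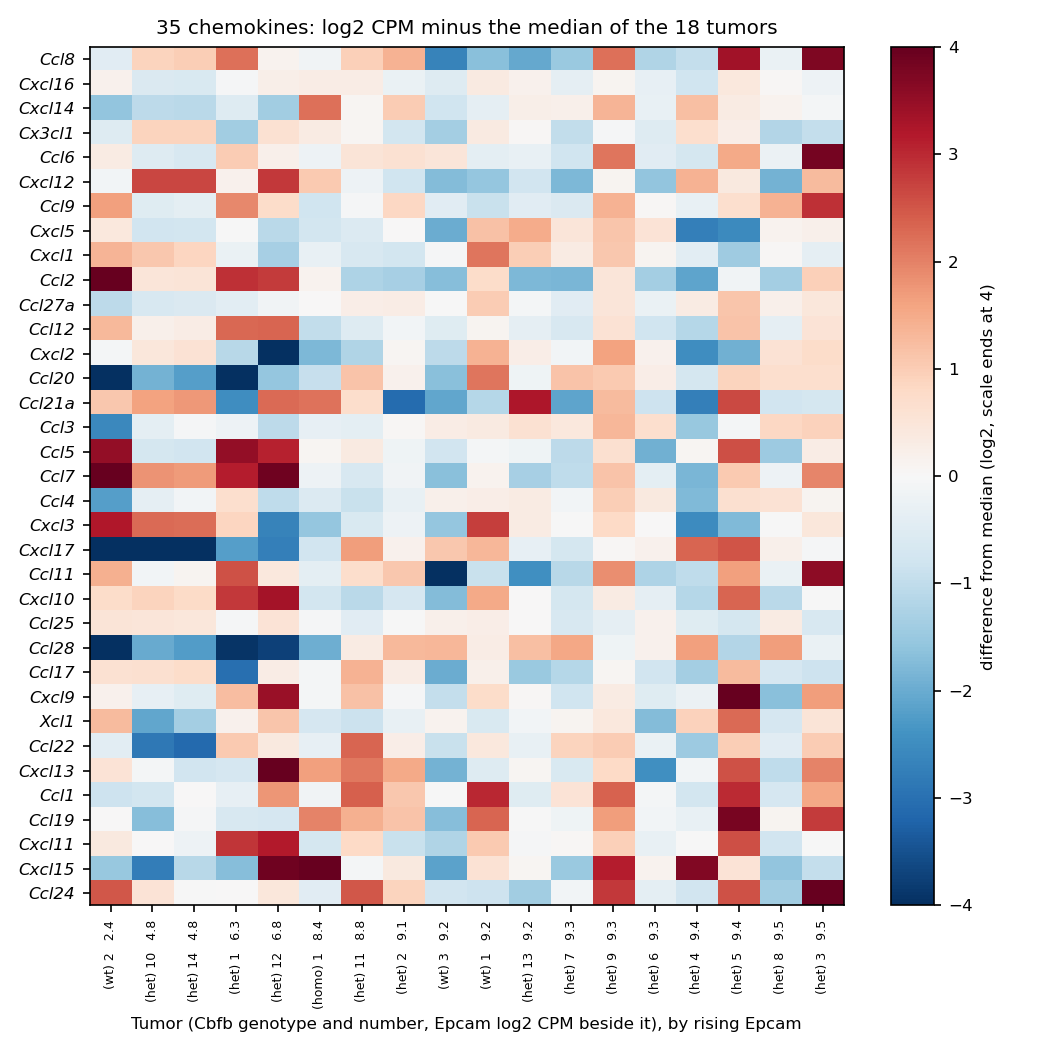
Each row is 1 of the 35 chemokine ligands that passed the filter (by falling median TPM) and each column 1 tumor by rising Epcam, with its Cbfb label, number and Epcam in log2 CPM under it; color is log2 CPM minus the gene's median over the 18 tumors, ending at 4 in either direction. Ccl2 and Ccl7 are red and Ccl20, Ccl28 and Cxcl17 blue in the 5 columns with little Epcam at the left.

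Ligands were first compared with the level of Epcam. A slope per log2 unit of Epcam was fitted for all genes with edgeR's quasi-likelihood test, and a gene was called at a Benjamini-Hochberg adjusted p under 0.05. Of the 35 ligands tested, 13 were called (37.1%), 6 higher and 7 lower with more Epcam, against 38.9% of all 18475 genes (19.2% higher and 19.7% lower). The share of ligands was thus near that of all genes, and their median slope was 0.01, against 0.00 over all genes. What the fit shows is which ligands lay on which side.

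The 6 called higher were Cxcl17, Ccl28, Ccl20, Ccl27a, Cxcl14 and Ccl3. Cxcl17 had the steepest slope, 1.26 ± 0.17 log2 per log2 unit of Epcam (SE, n = 18, edgeR adjusted p = 2.83e-05). Ccl28 had a slope of 0.83 ± 0.16 (edgeR adjusted p = 5.35e-04) and Ccl20 of 0.83 ± 0.18 (edgeR adjusted p = 1.33e-03). The slope of Ccl27a was smaller but precise, 0.21 ± 0.05 (edgeR adjusted p = 4.83e-03). Cxcl14 followed at 0.32 ± 0.11 (edgeR adjusted p = 0.0265), and Ccl3, an inflammatory CC ligand, at 0.27 ± 0.09 (edgeR adjusted p = 0.0233). The call of Ccl3 rested on Cbfb(wt) 2, without which its slope was 0.18 (edgeR adjusted p = 0.160). Without Cbfb(wt) 2, Cxcl14 kept a slope of 0.33 but an edgeR adjusted p of 0.0918, and without Cbfb(het) 10 or Cbfb(het) 14 it had a slope of 0.31 and an edgeR adjusted p of 0.0626 or 0.0625.

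The 7 called lower were Ccl2, Ccl7, Ccl12, Cxcl12, Ccl5, Cxcl3 and Ccl25. Ccl2 and Ccl7 had equal slopes of -0.73 ± 0.12 (edgeR adjusted p = 1.49e-04 and 1.96e-04). Cxcl12 had -0.48 ± 0.16 (edgeR adjusted p = 0.0211), and Ccl5 also -0.48 ± 0.16 (edgeR adjusted p = 0.0263). Of the Cxcr2 ligands taken by symbol, only Cxcl3 was called, at -0.38 ± 0.13 (edgeR adjusted p = 0.0268). Cxcl1, Cxcl2 and Cxcl5 had slopes of -0.11, 0.04 and 0.06. The platelet chemokine Ppbp, whose symbol lies outside the rule, was also lower, at -0.67 ± 0.15 (edgeR adjusted p = 2.02e-03). Ccl25 had -0.13 ± 0.05 (edgeR adjusted p = 0.0378), and Ccl12 had -0.30 (edgeR adjusted p = 0.0462). Several of these calls were lost on leaving out 1 tumor while the slopes stayed of like size. Without Cbfb(wt) 2, Ccl5 had a slope of -0.51 and Cxcl3 of -0.34 (edgeR adjusted p = 0.118 and 0.154). Without Cbfb(het) 10, Cxcl3 had -0.36 and Cxcl12 -0.43 (edgeR adjusted p = 0.0503 and 0.0732), and without Cbfb(het) 14, Cxcl12 had -0.43 (edgeR adjusted p = 0.0718). The call of Ccl12 was lost on leaving out any of 12 of the 18 tumors, at slopes of -0.30 to -0.22 and edgeR adjusted p of 0.0501 to 0.102, and was kept only without Cbfb(wt) 2 or Cbfb(het) 3, 5, 9, 10 or 14. The call of Ccl25 was lost without any of 11 tumors (Cbfb(wt) 2 and Cbfb(het) 1, 2, 3, 4, 5, 7, 9, 10, 12 and 14), at slopes of -0.15 to -0.11 and edgeR adjusted p of 0.0508 to 0.0828. The fibroblast markers had their highest mean, 11.09 log2 CPM, in the close pair Cbfb(het) 10 and 14, where Cxcl12 was at 212 TPM. They averaged 10.39 log2 CPM in Cbfb(wt) 2, where Cxcl12 was at 31.2 TPM, under its median of 33.6. Their part in the slope of Cxcl12 was not tested. With the level of the leukocyte markers (Ptprc, Laptm5, Coro1a and Cd53) as a second term, the slope of Ccl5 on Epcam was 0.04 (edgeR adjusted p = 0.809) and that of Ccl12 was -0.07 (edgeR adjusted p = 0.589). Ccl2 and Ccl7 remained called lower with that term.

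The slopes depended on the tumors with little Epcam. Without Cbfb(wt) 2, 8 ligands were called, 4 in each direction, and over the single-tumor omissions all genes called ranged from 6029 to 7446. Among the 13 tumors with Epcam above 8 log2 CPM, where Epcam spanned only 8.38 to 9.52, no ligand was called (edgeR), against 369 genes in all. There, Ccl2 had a slope of 0.10, Ccl7 of 1.21 and Ccl12 of 1.14, opposite in sign to the slopes over 18 tumors. Of the abundant ligands, Cxcl16 and Ccl9 had slopes near 0 over 18 tumors, 0.01 ± 0.04 and -0.03 ± 0.12 (edgeR adjusted p = 0.880 and 0.872). Cx3cl1 had -0.12 ± 0.08 and was not called (edgeR adjusted p = 0.251). The slope of Ccl8, the ligand with the highest median, was 0.18 ± 0.21, smaller than its SE.

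**Figure D3:**
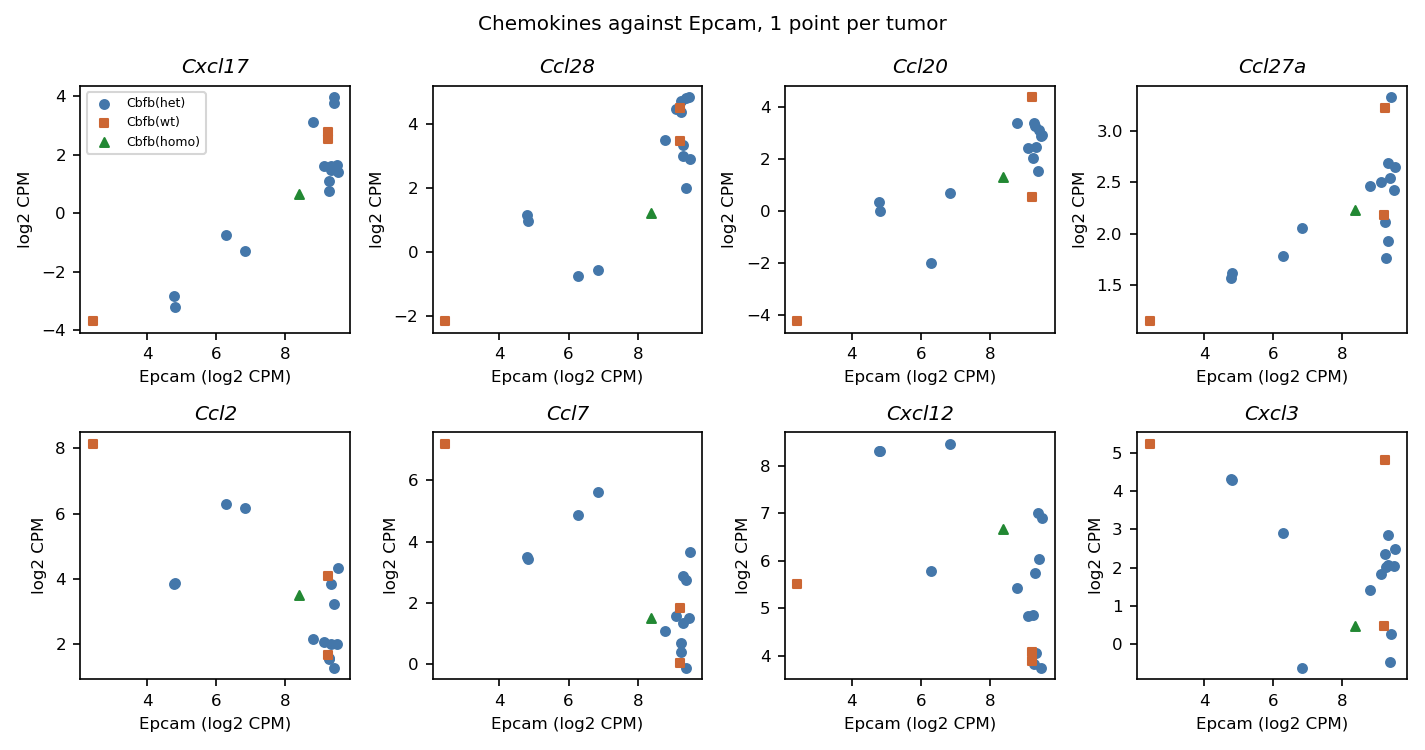
Log2 CPM of 8 chemokine ligands (vertical) against Epcam in log2 CPM (horizontal), 1 point per tumor, with color and shape for the Cbfb label. Cbfb(wt) 2, at 2.42, is the lowest point of Cxcl17, Ccl28, Ccl20 and Ccl27a and the highest of Ccl2, Ccl7 and Cxcl3.

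Ligands were then read against the leukocytes they draw. A score per tumor was the mean log2 CPM of marker genes of that leukocyte, with no chemokine or chemokine receptor among them, and the same test gave a slope per log2 unit of the score. The macrophage score (12 markers, Csf1r, Cd68, C1qa and others) ran from 4.94 in Cbfb(het) 7 to 7.31 in Cbfb(wt) 2. On it, 14 of 35 ligands were called, 13 higher and 1 lower, against 11.4% of 18464 genes (8.79% higher and 2.61% lower). Their median slope was 0.87, against -0.02 over all genes. The 3 Ccr2 ligands were among them, Ccl7 at 2.37 ± 0.32 (edgeR adjusted p = 8.54e-05), Ccl2 at 2.25 ± 0.32 (edgeR adjusted p = 1.13e-04) and Ccl12 at 1.24 ± 0.20 (edgeR adjusted p = 3.79e-04). Among the inflammatory CC ligands, Ccl5 was higher by 2.22 ± 0.23 (edgeR adjusted p = 3.90e-06), Ccl6 by 1.46 ± 0.39 (edgeR adjusted p = 0.0217) and Ccl9 by 0.94 ± 0.29 (edgeR adjusted p = 0.0394). Ccl3 and Ccl4 had slopes of -0.39 ± 0.30 and -0.11 ± 0.28 and were not called. The other 7 called higher were Ccl8, Ccl11, Ccl24, Cxcl9, Cxcl10, Cxcl11 and Cxcl13, with slopes of 1.37 (Cxcl10) to 2.61 (Ccl24). Ccl28 was lower, at -2.24 ± 0.53 (edgeR adjusted p = 9.59e-03). Cx3cl1, Cxcl14 and Cxcl17 had slopes of 0.04, -0.31 and -0.63 and were not called.

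The macrophage slopes held only in part where Epcam was abundant. With Epcam as a second term, 14 ligands were again called. Among the 13 tumors with Epcam above 8 log2 CPM, 7 ligands were called, and the slope of Ccl2 was 0.92 (edgeR adjusted p = 0.265), that of Ccl7 was 1.26 (edgeR adjusted p = 0.0813) and that of Ccl12 was 0.76 (edgeR adjusted p = 0.143). Without Cbfb(wt) 2, 13 ligands were called, and without Cbfb(het) 1, 11. Without Cbfb(wt) 2 or Cbfb(het) 1, Ccl9 had slopes of 0.98 and 0.88 and was not called (edgeR adjusted p = 0.0774 and 0.0987). The dendritic cell score was high in mostly the same tumors (Cbfb(het) 12, Cbfb(wt) 2, Cbfb(het) 5 and Cbfb(het) 1 at 3.08, 2.96, 2.73 and 2.38). Its 8 markers (Flt3, Zbtb46, Fscn1 and others) summed to 271 to 634 TPM in the 5 tumors with Epcam under 8 log2 CPM. In the other 13 they summed to 56.9 to 178 TPM. Clec9a and Cd209a were each at 0 in some tumor, and the part of other cells in this score was not tested. On it, 12 of 35 ligands were called, 11 higher and Ccl28 lower, against 11.1% of all genes (8.52% higher and 2.54% lower). All 11 were also called higher on the macrophage score. They included Ccl2, Ccl7, Ccl5 and Ccl12, whose slopes on the dendritic cell score were 2.46, 2.45, 2.20 and 1.19. With the median of the markers in place of their mean, 4 ligands were called. The ligands that draw dendritic cells were not among the 11: the slope was 0.90 ± 0.33 for Xcl1 (edgeR adjusted p = 0.0850), 1.42 ± 0.65 for Ccl19 (edgeR adjusted p = 0.174), 0.85 ± 0.64 for Ccl21a (edgeR adjusted p = 0.440) and -0.55 ± 0.62 for Ccl20 (edgeR adjusted p = 0.628).

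**Figure D4:**
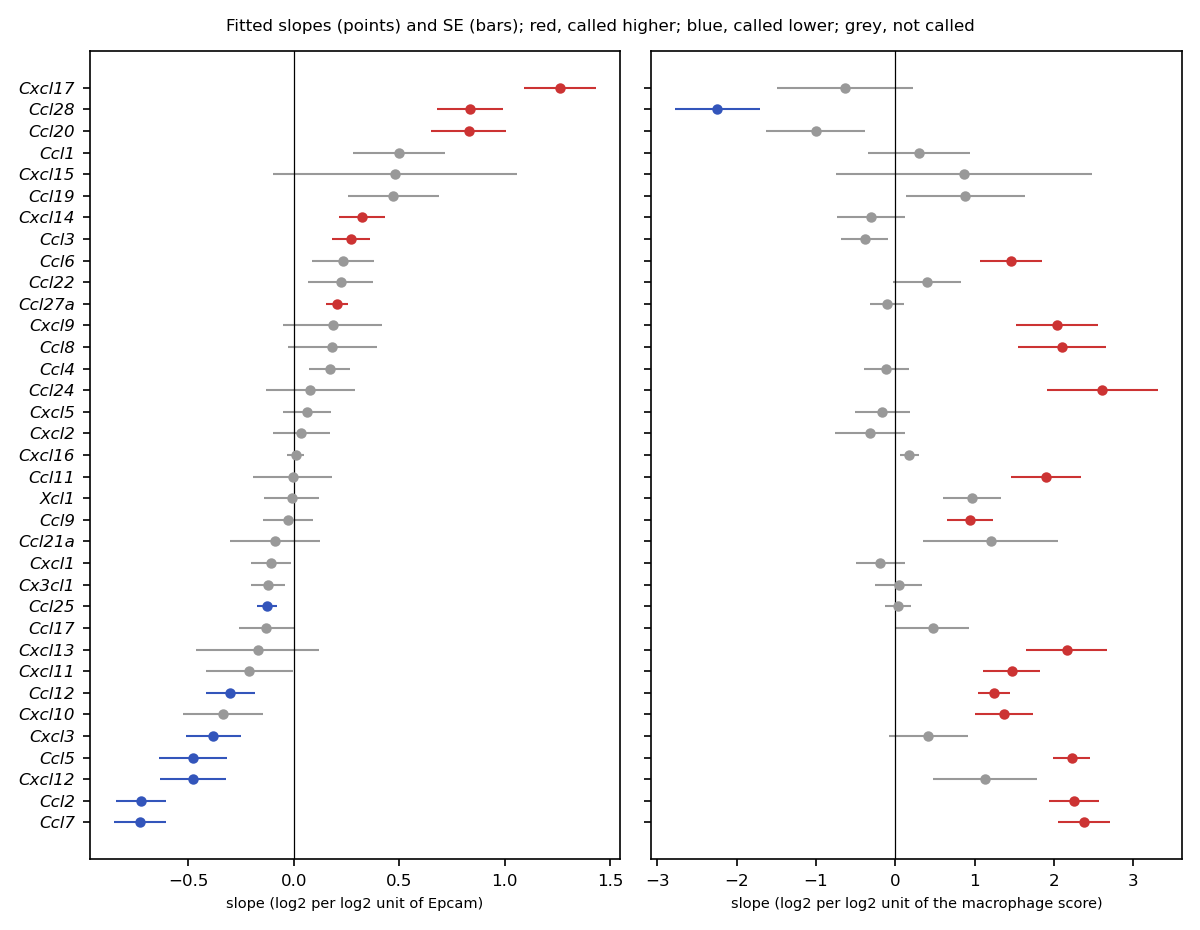
Fitted slopes (points) with their SE (bars) of the 35 chemokine ligands on Epcam (left) and on the macrophage score (right), both in log2 per log2 unit over 18 tumors, with red for called higher, blue for called lower and grey for not called. Ccl2, Ccl5, Ccl7 and Ccl12 are blue on the left and red on the right, and Ccl28 is red on the left and blue on the right.

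On the T cell score (12 markers, Cd3d, Cd3e, Lck and others), which ran from -1.33 in Cbfb(het) 7 to 2.27 in Cbfb(het) 5, 4 of 35 ligands were called, all higher, against 1.55% of 18464 genes. Cxcl9 had a slope of 1.49 ± 0.15 (edgeR adjusted p = 4.66e-05), Cxcl13 of 1.72 ± 0.30 (edgeR adjusted p = 4.37e-03), Cxcl11 of 1.12 ± 0.27 (edgeR adjusted p = 0.0403) and Ccl5 of 1.62 ± 0.40 (edgeR adjusted p = 0.0470). The third Cxcr3 ligand, Cxcl10, had 0.92 ± 0.30 and was not called (edgeR adjusted p = 0.165). Cxcl16 had 0.24 ± 0.08 (edgeR adjusted p = 0.139) and Ccl8 1.05 ± 0.38 (edgeR adjusted p = 0.226). The Ccr4 ligands Ccl17 and Ccl22 had slopes of 0.39 and 0.63, Ccl1 of 0.96 and Ccl25 of -0.15, none of them called. Cxcl9 remained called under every alternative tried, at slopes of 1.34 to 1.65. No alternative left out both Cbfb(het) 5 and Cbfb(het) 12, the 2 tumors with by far the most Cxcl9. Without Cbfb(het) 5, Cbfb(het) 7 or Cbfb(het) 14 only 2 ligands were called, and Cxcl11 and Ccl5 lost their calls, with slopes no smaller than over 18 tumors. Cxcl11 had 1.22, 1.23 and 1.14 (edgeR adjusted p = 0.161, 0.0566 and 0.0688), and Ccl5 had 1.90, 1.65 and 1.64 (edgeR adjusted p = 0.110, 0.104 and 0.0918). Without Cbfb(homo) 1, Ccl5 had 1.64 (edgeR adjusted p = 0.0573). Without Cbfb(het) 5, all genes called fell from 287 to 19, the lowest of the omissions tried (19 to 267). The NK cell score (6 of 7 markers passed the filter) ran from -2.76 in Cbfb(wt) 1 to 0.85 in Cbfb(het) 1. It rests on low levels, since the 7 markers summed to 0.81 to 17.6 TPM and Klre1 and Eomes were each at 0 in some tumor. On it, 7 ligands were called, all higher, against 6.76% of all genes (5.3% higher): Ccl5, Ccl7, Ccl12, Cxcl9, Ccl2, Xcl1 and Cxcl11. All of these but Xcl1 were also called higher on the macrophage score. Xcl1, which NK cells themselves make, had a slope of 0.84 ± 0.22 (edgeR adjusted p = 0.0297). Without Cbfb(het) 5, 4 ligands were called on this score, and among the 13 tumors with Epcam above 8 log2 CPM 1 was. All genes called on it ranged from 599 to 1501 over the single-tumor omissions tried, against 1249 over 18 tumors.

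Ligands that draw neutrophils were not called on the neutrophil score (10 markers, Csf3r, Retnlg, Mmp8 and others; -0.67 in Cbfb(het) 12 to 2.74 in Cbfb(het) 9). No ligand of the 35 was called with edgeR, DESeq2 or limma-voom, against 0.0217% of 18466 genes with edgeR. At an unadjusted edgeR p under 0.05 there were 6 ligands (17.1%), against 1347 genes (7.29%). Slopes were positive for all 4 Cxcr2 ligands taken by symbol: 0.70 ± 0.31 for Cxcl2 (edgeR adjusted p = 0.663), 0.91 ± 0.41 for Cxcl3 (edgeR adjusted p = 0.667), 0.43 ± 0.28 for Cxcl5 (edgeR adjusted p = 0.728) and 0.31 ± 0.25 for Cxcl1 (edgeR adjusted p = 0.766). Ppbp, outside the rule, had 1.70 ± 0.45 and was not called (edgeR adjusted p = 0.502). On the log2 CPM scale, Cxcl2 was lowest in Cbfb(het) 12, the tumor with the lowest score, and highest in Cbfb(het) 9, the tumor with the highest. Cbfb(wt) 1, highest in Cxcl1 and next highest in Cxcl2, had a score of 0.53. On the B and plasma cell score, where 5 of 8 markers passed, 3 ligands were called against 4.87% of all genes (1.54% higher and 3.33% lower): Cxcl9 higher at 0.70, Cxcl3 lower at -0.74 and Cxcl1 lower at -0.42. Without Cbfb(het) 5 or Cbfb(het) 14 none was, and all genes called ranged from 135 to 818 over the single-tumor omissions tried. Cxcl13, the B cell chemokine, had 0.77 ± 0.27 (edgeR adjusted p = 0.105). Its fellows in that comparison, Cxcl12, Ccl27a and Ccl28, had -0.27, 0.17 and 0.15. The eosinophil score held 2 of 7 markers, since Epx, Prg2, Il5ra, Ear1 and Ear6 did not pass and each was at 0 in some tumor. On it no ligand was called, against 0% of all genes, with 4 ligands (11.4%) and 1315 genes (7.12%) at an unadjusted edgeR p under 0.05. The slopes of the eotaxins were 0.46 ± 0.43 for Ccl11 and 1.47 ± 0.56 for Ccl24 (edgeR adjusted p = 0.812 and 0.689).

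**Figure D5:**
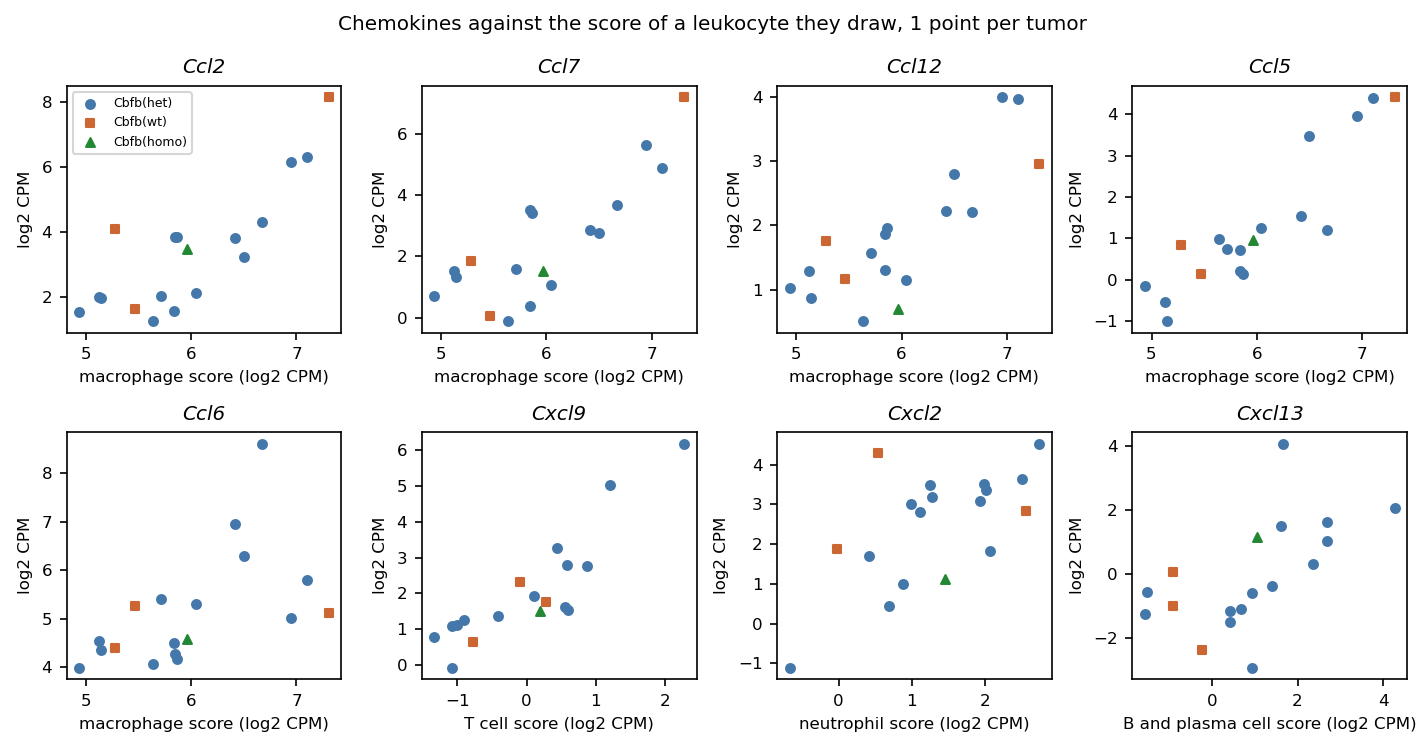
Log2 CPM of 8 chemokine ligands (vertical) against the mean log2 CPM of the markers of a leukocyte they draw (horizontal), 1 point per tumor, with color and shape for the Cbfb label. Cxcl9 rises from left to right with Cbfb(het) 5 at the upper right, while the 18 points of Cxcl2 against the neutrophil score are scattered and Cbfb(wt) 1 lies at 0.53 on the horizontal axis.

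The receptors were counted in the same fits. Of 25 receptors, decoy receptors and platelet chemokines, 21 passed the filter; Ccr8, Ccr10, Cxcr1 and Cxcr5 did not. On the macrophage score 11 of the 21 (52.4%) were called, all higher, against 11.4% of all genes, among them Ccr1, Ccr2, Ccr3, Ccr7, Cxcr3, Cxcr4, Cxcr6, Cx3cr1, Xcr1 and Pf4. Ccr2, the receptor of Ccl2, Ccl7 and Ccl12, had a slope of 2.01 ± 0.19 (edgeR adjusted p = 1.28e-06). On Epcam, 7 of the 21 were lower (Ccr1, Ccr2, Cxcr4, Cx3cr1, Ackr3, Ppbp and Pf4) and 1, Ccr4, was higher. These 8 (38.1%) were near the 38.9% of all genes called. Cxcr4 had -0.19 ± 0.04 and the decoy receptor Ackr3 -0.37 ± 0.06 (edgeR adjusted p = 2.06e-03 and 2.05e-04); both bind Cxcl12. Ccr4 had 0.74 ± 0.19 (edgeR adjusted p = 5.92e-03), whereas its ligands Ccl17 and Ccl22 had -0.13 and 0.22 and were not called. On the T cell score 3 of the 21 (14.3%), Ccr7, Cxcr3 and Xcr1, were higher, against 1.55% of all genes called. Cxcr3, the receptor of Cxcl9, Cxcl10 and Cxcl11, had a slope of 1.03 ± 0.17 (edgeR adjusted p = 2.61e-03). On the dendritic cell score 10 of the 21 were higher, against 11.1% of all genes called. On the NK cell score 7 were higher, against 6.76%. Ccr2 was among both, with slopes of 1.998 and 1.435. None of the 21 was called on the neutrophil or the eosinophil score. Cxcr2, the receptor of the neutrophil ligands, had 0.47 ± 0.27 on the neutrophil score (edgeR adjusted p = 0.705). On the B and plasma cell score Cxcr3 was higher and Ppbp lower. Of 10 cytokines known to induce chemokines, 6 passed the filter (Ifng, Il17a, Il4 and Il13 did not). On Epcam 2 of the 6 (33.3%) were called, Tnf higher (0.37) and Il6 lower (-0.34), against 38.9% of all genes. On the T cell score 1 of the 6, Ltb, was higher (0.91), and on the macrophage score 1, Il6 (1.43). Of 10 genes induced by or acting with interferon, all passed. On the T cell score 2 of the 10 (20%), Irf1 and Gbp2, were higher, by 0.49 and 0.78, against 1.55% of all genes called. On Epcam 2 (20%), Irf7 and Oas1a, were higher, both by 0.29, against 38.9% of all genes called. On the macrophage score 1 (10%), Irf1, was higher, by 0.71, against 11.4%.

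The labels imply 1 comparison of genotypes, 14 Cbfb(het) against 3 Cbfb(wt) tumors. No ligand of 35 was called, against 0% of 18494 genes, whether by edgeR, DESeq2 or limma-voom, and at an unadjusted edgeR p under 0.05 there were 5 ligands (14.3%) and 624 genes (3.37%). Those 5 had wide errors (edgeR adjusted p = 0.999 for each). Ccl8 was at 11.1, 24.2 and 60.1 TPM in the Cbfb(wt) tumors and at 20.1 to 855 TPM in the Cbfb(het) tumors, so the groups overlapped, with a difference, Cbfb(het) minus Cbfb(wt), of 2.97 ± 1.24 on the log2 scale. Cxcl1 was at 32.4, 98.8 and 160 TPM in the Cbfb(wt) tumors and at 11.6 to 79.3 TPM in the Cbfb(het) tumors, with a difference of -1.24 ± 0.48. Cxcl3 differed by -1.86 ± 0.82. Ccl2 was at 7.29, 43.5 and 757 TPM in the Cbfb(wt) tumors, with a difference of -2.54 ± 1.01, and Ccl7 differed by -2.34 ± 1.05. The last 2 turned around without Cbfb(wt) 2, to 0.81 for Ccl2 and 2.14 for Ccl7. Cbfb(wt) 2 was also the tumor with the least Epcam, so with 3 tumors in that group genotype and Epcam cannot be told apart for these genes. The Cbfb(homo) tumor has no replicate. Its Cxcl14 (379 TPM) and Cxcl15 (17.2 TPM) were the highest of the 18 tumors, while its Ccl12 (7.21 TPM) ranked 17 of 18 by log2 CPM.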

How the data were processed

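Per the labels' protocols, RNA of freshly isolated tumors was extracted with Trizol and made into TruSeq stranded mRNA libraries. For every tumor the authors deposited RSEM output per gene: expected counts, which are estimated, not normalized and need not be whole (6.20% to 7.19% were not whole), and TPM, which is scaled by transcript length and to 1 total per tumor. Alignment and counting tools, per the submitters' processing notes, were STAR (2.7.0f) and RSEM (1.3.1), with the mm10 build; the annotation is not given in the sources used here, but all 55450 gene IDs occur in GENCODE M21, which gave positions. The deposited FPKM was not used. Counts were rounded and tested with edgeR 4.0.16 in R 4.3.3 (TMM factors, quasi-likelihood F test, Benjamini-Hochberg over all genes, threshold 0.05, n = 18 tumors unless stated). Genes were kept with a CPM equal to 10 counts at the median library in at least 3 tumors and a total of at least 15, which left 18476 genes; Epcam and the genes of a score were left out of the genes counted in its fit. The SE was derived from a slope and its F statistic, as the slope over the root of F. Log2 CPM used a prior count of 2. Each ligand was read against 1 matched score by the receptor it is known to bind, Ccl5 against both the macrophage and the T cell score. Named genes were all ligands, with levels where the median was at least 1 TPM and full statistics for at most 12 in a comparison by smallest p; levels of the lower ligands were added after seeing the data. Other pathway genes come from 1 list of receptors, inducers and interferon-induced genes. Members and lists were chosen with earlier results of these data known. Tumor numbers are only names. Tests measure spread between tumors of different mice. DESeq2 1.42.0, limma-voom (limma 3.58.1), other filters, other terms and omitted tumors were tried. The fits were tested on simulated data.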

Additional observations from a re-analysis of the deposited data

How the results depend on the processing

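No paired analysis was possible because tumor numbers follow accession order and nothing pairs mice across groups, and the fit within the largest run of Epcam levels was not made because no gap passed its limit. Alternatives among the 13 tumors with Epcam above 8 log2 CPM, and without both Cbfb(wt) 2 and Cbfb(het) 14, were chosen after seeing the data. On Epcam, 13 ligands were called; leaving out 1 tumor gave 8 to 12, leaving out the 2 farthest tumors or Cbfb(wt) 2 and Cbfb(het) 14 gave 8 each, and the 13 tumors gave 0, with slopes turned for Cxcl14 (-1.39), Cxcl3 (1.41), Ccl5 (0.68), Ccl12 (1.14), Ccl7 (1.21) and Ccl2 (0.10). There, all genes called fell from 7179 to 369. Ccl5 turned to 0.041 with the leukocyte markers as a second term. On the macrophage score (14 ligands), limma-voom called 9, the median of markers 7 and the 13 tumors 7; all genes called went from 2105 to 571 in the 13 tumors and 3720 by DESeq2, and to 1297 without Cbfb(wt) 2. On the neutrophil score (0 ligands, 4 genes), 1 ligand was called without the 2 farthest tumors, and 0 to 54 genes over the alternatives. On the T cell score (4), DESeq2 called 9, a filter in at least 9 tumors 2 and omission of the 2 farthest tumors 2, while leaving out 1 tumor gave 2 to 3; all genes called (287) ranged from 8 to 904. On the NK cell score (7), DESeq2 called 12, limma-voom 3, omission of the 2 farthest tumors 3 and the 13 tumors 1, and leaving out 1 tumor gave 4 to 6; all genes (1249) ranged from 142 to 2651 and came to 599 without Cbfb(het) 1. On the B and plasma cell score (3), DESeq2 called 7, limma-voom 6, genotype as a second term 1, omission of the 2 farthest tumors 0 and the 13 tumors 0, and leaving out 1 tumor gave 0 to 3; all genes (899) ranged from 44 to 1929. On the dendritic cell score (12), the median of markers called 4; all genes (2042) ranged from 567 to 3496, with 1270 without Cbfb(wt) 2. The eosinophil score called no ligand under any alternative run, and up to 24 genes. Cbfb(het) against Cbfb(wt) called no ligand under any of 21 alternatives and at most 1 gene. There, leaving out 1 tumor moved Ccl7 from -2.91 to 2.14 and Ccl2 from -3.11 to 0.81, and Ccl7 turned to 0.74 with Epcam as a second term. The cause of these changes was not tested. The order of levels kept the same first 10 ligands by median log2 CPM and without Cbfb(het) 14. Low counts limit Ccl17, Xcl1, Ccl1, Ccl19, Ccl24 and Cxcl11, with 201 (Ccl1) to 443 (Ccl17) counts each over all tumors.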
